A study of Mus musculus with 2 samples.

Results

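Small Cajal body RNAs (scaRNAs) are short noncoding RNAs of the nucleus, and 51 of the 55536 annotated gene rows in the deposited tables belonged to this class. A gene was taken as a member where every one of its transcripts was annotated as scaRNA in the deposited transcript tables. The rule itself reads the annotation only. The members occupied 46 loci, because 5 loci carried a pair of gene IDs that overlapped along almost their whole length. Their annotated lengths ran from 76 to 414 nt with a median of 136 nt, and 7 had a symbol beginning with Scarna. A further 2 genes with such a symbol, Scarna10 (325 nt) and Scarna9 (70 nt), are annotated as snoRNA and so are not members.

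The RNA came from bone marrow-derived macrophages (BMDM) of mouse strain C57BL/6J, which the labels describe as primary cells. Both libraries were total RNA depleted of ribosomal RNA, taken after lipid A had been given at 100 ng/ml for 50 minutes. Lipid A is the part of bacterial lipopolysaccharide that macrophages sense through TLR4. The labels call the fraction nucleoplasmic in the description and nuclear in the source and cell part fields. Replicate 1 started from 500 ng of RNA and replicate 2 from 1 µg, and the labels give a size range of 250 to 400 without a unit. Sex and age were not collected, and both libraries carry the same donor label. These 2 biological replicates form 1 group, and no untreated library was analysed here. No comparison between conditions could therefore be made, no p-value was computed, and spread is given between the 2 libraries only.

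Spliceosomal small nuclear RNAs (snRNAs) carry modified bases that are placed by guide RNAs, and scaRNAs are the guides that work in Cajal bodies. Box C/D scaRNAs pair with an snRNA and direct 2'-O-methylation by fibrillarin, and H/ACA scaRNAs direct pseudouridylation by dyskerin. Most are cut out of introns of host genes after debranching and are then trimmed by exonucleases, whereas human SCARNA2 has its own promoter. The protein Wrap53 carries them to Cajal bodies by way of a CAB box in H/ACA scaRNAs or a GU-rich stretch in box C/D scaRNAs.

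The 6 members with at least 10 expected counts in both libraries, and Gm22442, which ranked next, are shown here because the values below rest on them. The sequences are the GENCODE M21 transcripts on mm10, whole or, for the longest pair, the stretches that hold the marked parts, written 5' to 3' in DNA letters. Capitals mark the C box TGATGA and the D box CTGA, the ACA near the 3' end of H/ACA-type members, and a run of TG repeats in Gm22009.
Gm22009 (chr3:69085105-69085447, minus strand, 343 nt, intron of Kpna4), bases 1 to 160: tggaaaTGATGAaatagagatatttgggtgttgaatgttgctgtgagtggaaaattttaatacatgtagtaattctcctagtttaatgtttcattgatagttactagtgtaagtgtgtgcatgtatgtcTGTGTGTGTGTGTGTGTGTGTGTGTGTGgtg
Gm22009, bases 284 to 343: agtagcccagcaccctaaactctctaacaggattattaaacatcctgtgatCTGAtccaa
Scarna2 (chr3:108554338-108554751, minus strand, 414 nt, no overlapping gene), bases 315 to 414: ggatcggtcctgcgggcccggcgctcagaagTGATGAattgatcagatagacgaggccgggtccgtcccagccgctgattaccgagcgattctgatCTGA
Gm25395 (chr1:87776938-87777209, plus strand, 272 nt, intron of Atg16l1): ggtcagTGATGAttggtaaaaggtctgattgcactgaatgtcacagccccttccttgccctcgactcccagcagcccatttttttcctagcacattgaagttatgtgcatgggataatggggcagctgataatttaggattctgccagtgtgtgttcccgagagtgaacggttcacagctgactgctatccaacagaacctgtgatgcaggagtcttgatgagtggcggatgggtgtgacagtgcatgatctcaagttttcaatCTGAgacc
Scarna13 (chr12:105031075-105031349, minus strand, 275 nt, intron of Snhg10): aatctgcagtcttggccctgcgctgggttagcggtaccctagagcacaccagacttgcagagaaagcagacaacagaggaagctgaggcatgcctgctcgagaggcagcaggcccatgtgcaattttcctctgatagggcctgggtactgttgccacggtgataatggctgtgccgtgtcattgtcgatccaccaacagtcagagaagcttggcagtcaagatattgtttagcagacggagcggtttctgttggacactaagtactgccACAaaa
Scarna6 (chr1:87784556-87784820, plus strand, 265 nt, intron of Atg16l1): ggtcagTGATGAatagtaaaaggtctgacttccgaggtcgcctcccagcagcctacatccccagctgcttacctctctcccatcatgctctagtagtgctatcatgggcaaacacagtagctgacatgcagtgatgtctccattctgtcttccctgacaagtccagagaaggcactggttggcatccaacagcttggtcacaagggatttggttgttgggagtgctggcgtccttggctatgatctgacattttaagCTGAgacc
Gm26083 (chr11:117077243-117077435, plus strand, 193 nt, overlapping an exon of Snhg20): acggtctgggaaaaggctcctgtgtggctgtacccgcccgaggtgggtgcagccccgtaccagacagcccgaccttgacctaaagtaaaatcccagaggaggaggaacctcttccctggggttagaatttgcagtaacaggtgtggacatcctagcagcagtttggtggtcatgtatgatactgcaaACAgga
Gm22442 (chr11:69350518-69350661, minus strand, 144 nt, intron of Chd3): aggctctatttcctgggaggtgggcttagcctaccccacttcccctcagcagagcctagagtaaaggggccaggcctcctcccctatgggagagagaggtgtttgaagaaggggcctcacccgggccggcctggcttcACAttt

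Motifs were searched in the transcript strand: TGATGA in the first 30 nt together with CTGA in the last 30 nt for box C/D-like ends, and ACA in the last 8 nt for H/ACA-type ends. Box C/D-like ends were found in 7 of 51 members (13.7%), against 20.9% of snoRNA transcripts and 0.345% of all transcripts of at least 60 nt. ACA near the 3' end was found in 35 members (68.6%), against 47.0% of snoRNA transcripts and 11.5% of all transcripts. Gm22009, Gm25395 and Scarna6 had box C/D-like ends, and Scarna13, Gm26083 and Gm22442 ended in ACA followed by 3 bases. Scarna2 ended on CTGA, but its TGATGA began at base 346 and so fell outside the window. A run of TG repeated at least 5 times occurred in 1 member, Gm22009, where it filled bases 130 to 157. Such a run was in 0.484% of all transcripts of 250 to 450 nt and in 4.84% of all transcripts of at least 60 nt. Gm25395 and Scarna6 share their first 12 bases and 27 of their first 30, while over the whole length they were 61.4% identical. A match in these windows is a match of letters and no test of function.

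The expected counts of scaRNA in nuclear RNA of these macrophages came almost wholly from 5 genes, led by Gm22009. Expected counts are the authors' estimated numbers of fragments per gene, and replicate 1 had 10342882 of them on gene rows and replicate 2 had 20495545. All scaRNA genes together had 13259.5 expected counts in replicate 1, which is 0.1282% of the total with an exact binomial 95% interval from 0.126 to 0.1304%. In replicate 2 they had 36861.58, or 0.1799% (0.178 to 0.1817%). The share averaged 0.154% ± 0.0366 (SD, n = 2), and the gap between the libraries was wider than either interval. These intervals cover counting error only, and no molecular identifiers are described. In TPM (transcripts per 1000000, counts corrected for effective length) the members held 0.9861% in replicate 1 and 0.776% in replicate 2, so that the order of the libraries was the opposite of that by counts. These are values of bulk RNA, in which the share of cells that carry an RNA and its amount per cell cannot be told apart. The 5 most counted members held 99.86% and 99.38% of all scaRNA counts. In these counts 20 members in replicate 1 and 4 in replicate 2 had an effective length of 0 and were listed at 0. The shares therefore describe counted fragments and not the amount of every scaRNA.

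At least 10 expected counts in both libraries were reached by 6 of 51 members, or 11.8%; the same held for 23.0% of all gene rows. By the ends searched above, 3 of these 6 genes had box C/D-like ends and 2 had ACA ends, which does not by itself set their guide class. The remaining gene was Scarna2, which guides 2'-O-methylation of U2 snRNA.

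Gm22009 was by far the most abundant member. It lies in an intron of Kpna4, which encodes an importin alpha; in human, the KPNA4 gene hosts SCARNA7, a guide for U1 snRNA. Gm22009 had 10924 expected counts in replicate 1 and 26439 in replicate 2, which were 82.39% and 71.73% of all scaRNA counts. It ranked 92nd and 70th among all gene rows by count, and 30th and 28th by TPM. Its TPM was 7756.08 and 4914.27 (mean 6335 ± 2009, SD, n = 2).

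Scarna2 was the second of the members in both libraries, with 1535 and 6008 expected counts and a TPM of 703.43 and 777.18. Its replicate TPM values were close (740.3 ± 52.2, SD, n = 2). No annotated gene overlapped it, and the nearest genes on either side were 1700013F07Rik, 9614 bases away and listed at 0 counts in both libraries, and Gm43435, 715 bases away with 2.34 and 7.37 counts. Both neighbours lie on the other strand. The high count of Scarna2 stood beside almost no counts in either neighbour, and how Scarna2 is transcribed was not tested.

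Gm25395 and Scarna6 lie 7346 bases apart in introns of the autophagy gene Atg16l1, whose human counterpart hosts SCARNA5 and SCARNA6, guides for U5 snRNA. Gm25395 had 383 and 2023 expected counts and a TPM of 539.38 and 645.72. Scarna6 had 145 and 799 expected counts and a TPM of 223.29 and 273.36. Although they share a host, Gm25395 was the higher of the pair in both libraries, by 2.64-fold in replicate 1 and 2.53-fold in replicate 2 in expected counts. The ratio of their TPM was 2.42 and 2.36, and the ratio of the estimated counts from the other quantification was 2.24 and 2.52. Expected counts were 5.28-fold and 5.51-fold higher in the deeper library for Gm25395 and Scarna6, and estimated counts 3.42-fold and 3.04-fold higher.

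Scarna13 lies in an intron of the noncoding gene Snhg10 and its human counterpart guides pseudouridylation of U2 and U5 snRNA. It had 254 and 1363 expected counts and a TPM of 344.79 and 422.79. Gm26083 overlaps an exon of Snhg20, another noncoding host, whose human form carries SCARNA16. It had 12.5 and 145.86 expected counts and a TPM of 73.09 and 142.48. Its counts are not whole, and how far reads of the overlapping Snhg20 exon entered them was not tested. How far reads from unspliced host RNA entered the counts of members in introns was not tested either. Ordered by TPM, the 6 genes kept the same order in both libraries, from Gm22009 down to Gm26083. For every pair of neighbours in that order, the lower of the higher gene's values was above the higher of the other's, as with 703.43 for Scarna2 in replicate 1 and 645.72 for Gm25395 in replicate 2.

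Scarna10, left out because its annotation is snoRNA, would have stood near the top of this order. It had 1487.86 and 8721.85 expected counts and a TPM of 1218.84 and 1818.47, which is above Scarna2 in TPM in both libraries. It enters none of the scaRNA totals given here.

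**Figure D1:**
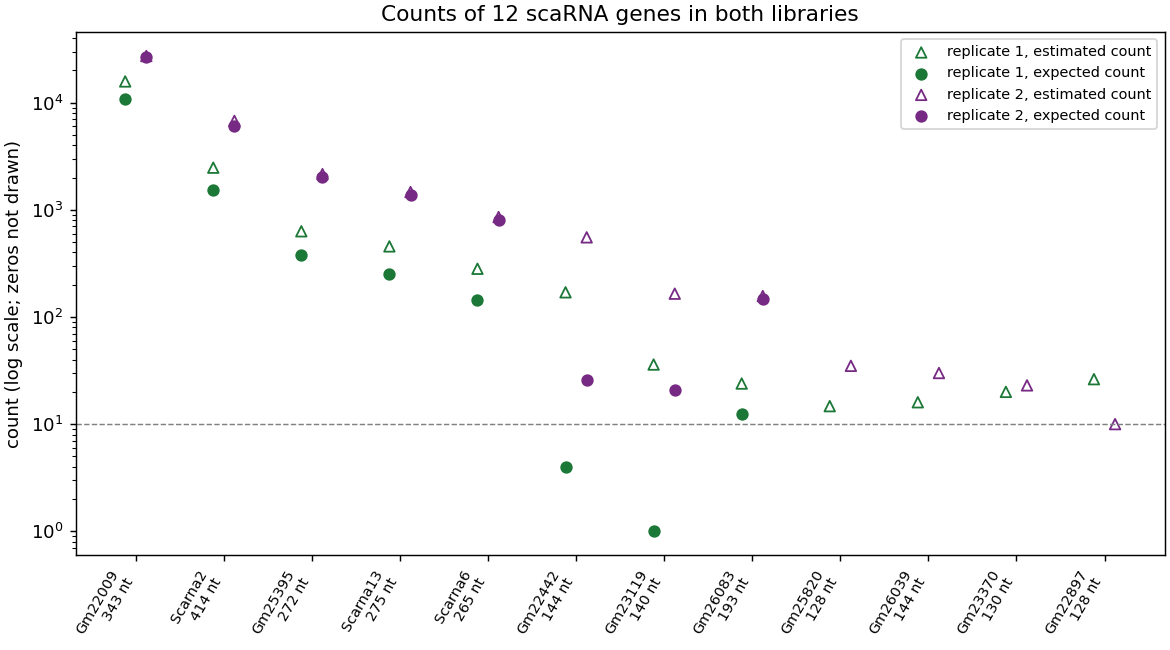
Counts on a log scale of the 12 scaRNA genes with at least 10 estimated counts in both libraries; filled circles are expected counts and open triangles are estimated counts from the other quantification, by replicate, and the dashed line marks 10 counts. Gm22009 has the highest of all values, and for Gm22442 and Gm23119 the triangles lie far above the circles.

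Most members with at least 10 expected counts in both libraries were long, whereas 7 of the 12 with as many estimated counts were under 200 nt. Of 8 members of 200 nt or more, 5 (62.5%) had at least 10 expected counts in both libraries, compared with 1 of 39 (2.56%) of at least 100 but under 200 nt and 0 of 4 below 100 nt. The same classes of snoRNA genes gave 12 of 31 (38.7%), 8 of 1018 (0.786%) and 0 of 458. The 3 long members without any count, Gm25624 (275 nt), Gm26489 (264 nt) and Gm27414 (381 nt), lay wholly inside no gene other than a small RNA. Gm26489 and Gm25624 were 80.7% and 80.4% identical in sequence to Scarna13.

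Effective length, the number of positions at which a fragment of the library could start, differed strongly between the short and long members and between the libraries. The deposited effective lengths correspond to a mean fragment length of 221.4 nt in replicate 1 and 187.9 nt in replicate 2. For members of 100 nt up to 200 nt the effective length ran from 0 to 15.22 nt in replicate 1 and from 1.38 to 30.19 nt in replicate 2. It was 0 for 20 members in replicate 1, the longest of them 130 nt, and for 4 members in replicate 2, the longest 88 nt; a gene with an effective length of 0 was listed at 0 whatever its reads. A TPM of a short member can therefore rest on few counts: Gm25492, a 129 nt member in an intron of Bud23, had 18 expected counts in replicate 2 and a TPM of 226.38, close to the 223.29 that Scarna6 had in replicate 1 with 145 counts. In replicate 1 Gm25492 had an effective length of 0 and was listed at 0.

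**Figure D2:**
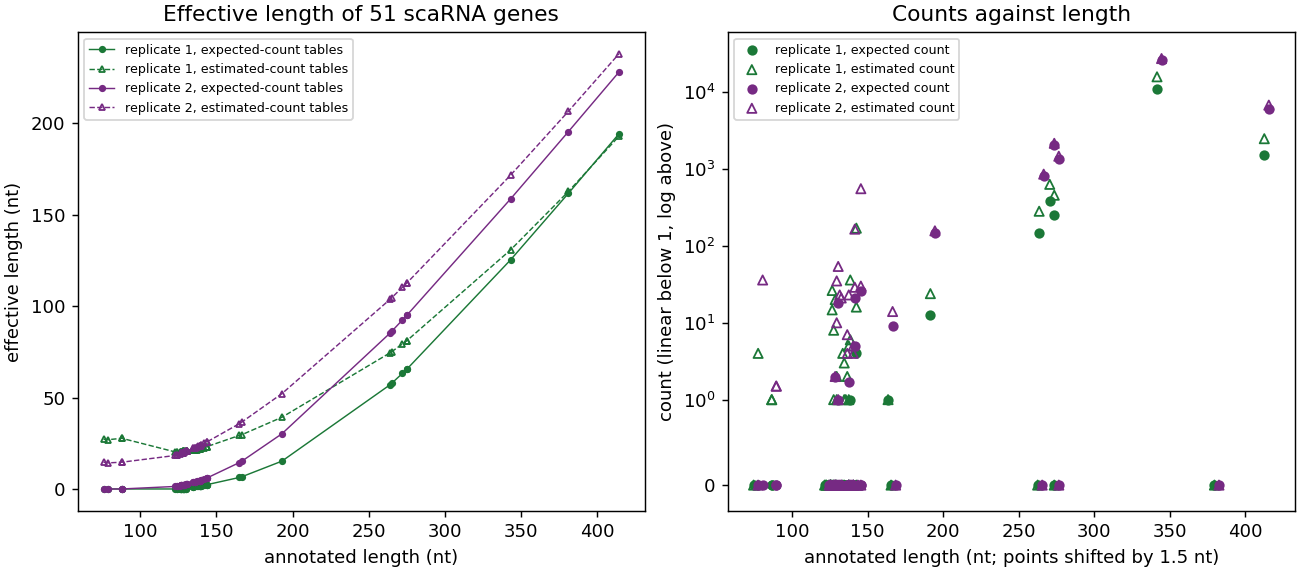
Left, effective length against annotated length for the 51 scaRNA genes in the expected-count tables (solid lines) and the estimated-count tables (dashed lines); right, the counts against length on an axis that is linear below 1 and logarithmic above. Below 131 nt the effective length of replicate 1 is 0 in the expected-count tables, and there the open triangles of the estimated counts are the only values of replicate 1 above 0.

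The authors' second quantification kept an effective length above 0 for every member and counted more of the short ones. At least 10 estimated counts in both libraries were found for 12 members (23.5%), against 37.8% of all gene rows. These were the same 6 genes plus Gm22442, Gm23119, Gm26039, and 1 gene ID each of Gm25820, Gm22897 and Gm23370, all between 128 and 144 nt. Gm22442 lies in Chd3, the gene of a chromatin remodeller. It had 170 and 554 estimated counts against 4 and 26 expected counts. Its estimated TPM was 236.4 and 123.4, beside 256.9 and 112.3 for Gm25395, so on that scale the 2 genes were level. Gm23119 had 36 and 165 estimated counts against 1 and 21 expected counts.

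The other short members were near the limit of detection. Of 37 members with 0 expected counts in both libraries, 13 had estimated counts above 0 in both, and 18 were at 0 in both libraries in both quantifications. A count of 0 allows up to 0.29 CPM (counts per 1000000) in replicate 1 and 0.146 in replicate 2 for a gene with a usable effective length. Gm26039, which lies in an intron on the opposite strand of another gene, had 16 and 30 estimated counts. Scarna3a, in Cop1, had 6 and 28.9 estimated counts and 0 and 5 expected counts, and Gm22767, in Ppp1r8, had 1 and 14 estimated counts and 1 and 9 expected counts. Scarna17, which is 79 nt long and lies 91 bases from Gm23119 on the same strand, had 4 and 36 estimated counts and an effective length of 0 in the expected-count tables. With an effective length of 0, as for Scarna17, a listed 0 does not show absence.

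Several short members had near-identical copies. A copy of at least 80% identity at another locus existed for 28 members. Gm25119 and Gm22416 were identical, and Gm22442 and Gm23386 differed by 8 edits (94.4% identical). Gm25820 in Khdc4, Gm22897 in Cdk14, Gm23370 in Mgat5 and the unhosted Gm25058 formed a family, each 93.7 to 95.3% identical to its closest relative. The gene IDs of Gm22813 (91.3 and 91.4%) and Gm26413 (86.6 and 85.9%) were less close to this family. Estimated counts went to 1 of the paired gene IDs, with 14.7 and 35 for Gm25820, 26.3 and 10 for Gm22897, and 20 and 23 for Gm23370. In replicate 2 the other gene ID had 2 expected counts for Gm25820 and 1 for Gm23370. Relative to the total estimated counts of each library, Gm22897 and Gm23370 were lower in replicate 2 and Gm25820 was higher. How the quantifiers split reads among these copies was not tested, and their single values are uncertain.

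Members were found both inside and outside genes. Of the members, 29 lay in introns of a gene on the same strand, 2 overlapped an exon, and 5 lay in or over a gene of the opposite strand. The other 15 lay wholly inside no gene other than a small RNA, and partial overlap was not searched. Among the 29 intronic members 4 had at least 10 expected counts in both libraries and 8 had at least 10 estimated counts. Among the 15 members outside genes these numbers were 1 and 2, and 12 of the 15 were at 0 in both libraries and both quantifications. The 31 members with a host gene had 25 host genes, 20 of which reached 1 TPM in both libraries. The 21 host genes without a detected member had mean TPM from 0 to 109 with a median of 5.71, a range that spanned the hosts of the detected members. Detection here used expected counts, which a member with an effective length of 0 in replicate 1 could not reach.

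Every detected member with a host exceeded it in TPM in both libraries, but the count minimum for detection favoured this outcome. A member with a short effective length reaches a high TPM with few counts. In replicate 1 Gm26083 had 12.5 expected counts over an effective length of 15.22 nt, which gave 73.09 TPM. Of all 31 members with a host, detected or not, 7 exceeded it in both libraries. Members with an effective length of 0 in replicate 1, such as Gm25492, were listed at 0 there and could not do so. Whether scaRNAs in general stand above their hosts is therefore decided neither by the detected members nor by this count. Gm22009 was 433-fold above Kpna4 in replicate 1 (7756.08 against 17.9 TPM) and 391-fold above it in replicate 2 (4914.27 against 12.58). Gm25395 was 68.2-fold and 113-fold above Atg16l1, which had 7.91 and 5.72 TPM, and Scarna6 was 28.2-fold and 47.8-fold above it. Gm26083 was 14.4-fold and 19.5-fold above Snhg20, which had 5.08 and 7.32 TPM. Scarna13 stood apart, because Snhg10 was listed at 0 in replicate 1 and had 4 expected counts (0.35 TPM) in replicate 2. Its 254 and 1363 counts thus came with almost no reads from the exons of its host.

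The relation of member to host level changed with the members and the quantification used. Across the 5 detected members with a host, Spearman's rho between the log2(TPM + 1) of member and host was 0.616 (Pearson's r 0.418). These 5 points come from the same libraries, and 2 of them share Atg16l1. Over all 31 members with a host rho was 0.175 in the expected-count tables and 0.365 in the estimated-count tables. In the latter it was -0.268 over the 9 members with at least 10 counts. The value of 0.175 includes members listed at 0 because their effective length was 0. The most abundant host was Chd4, a chromatin remodeller with 128.24 and 89.41 TPM. Its member Gm23751 had 0 expected counts and 3 and 23 estimated counts. The effective length of Gm23751 was only 1.45 and 3.85 nt in the expected-count tables. Cop1, a ubiquitin ligase with 67.2 and 40.37 TPM, likewise came with the few counts of Scarna3a given above. Scarna3a had an effective length of 1.88 and 4.89 nt there. With so few positions, expected counts do not set the level of either member against its host.

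**Figure D3:**
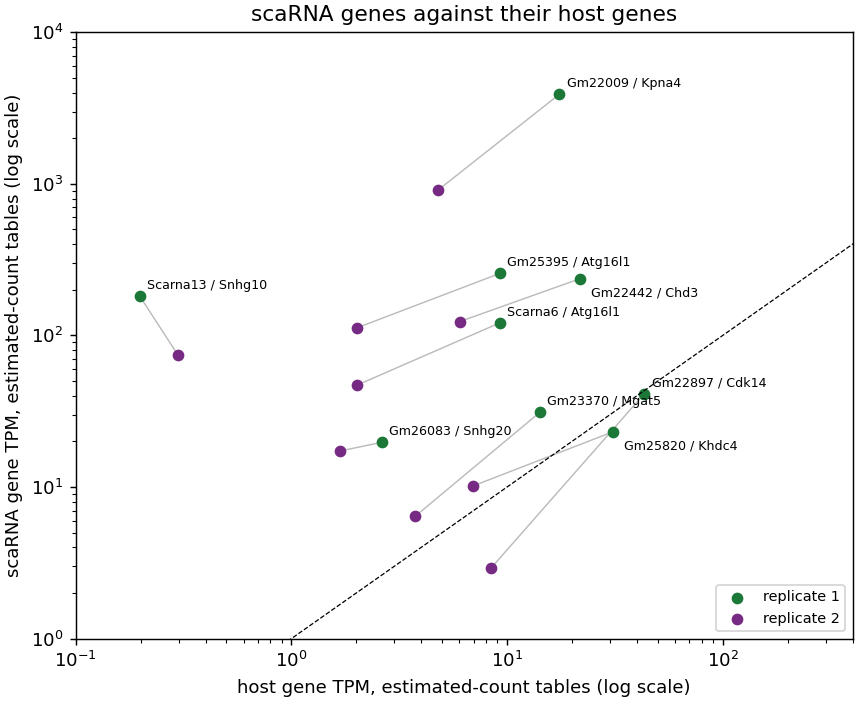
TPM of 9 scaRNA genes against the TPM of their host genes, both from the estimated-count tables and on log scales, with a grey line joining the 2 libraries of a pair; the dashed line marks equal TPM. Gm22009 and Scarna13 lie farthest above the line, 7 genes lie above it in both libraries, and Gm22897 and Gm25820 lie below it in at least 1. Nearly all points are lower in replicate 2.

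Estimated TPM of the 2 libraries cannot be compared as levels. In replicate 2 miRNA gene rows held 73.6% of all estimated TPM, of which Gm24245, Gm23935 and Gm24270, each 57 nt long, held 24.3% apiece; in replicate 1 miRNA gene rows held 18.9%. The scaRNA share of estimated TPM was 0.536% and 0.157%, and that of protein-coding genes was 28.1% and 5.82%. Ratios within a library, as of member to host, are free of this shift.

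Between the replicates, the detected scaRNA genes were higher in replicate 2 than most genes. The value used was the log2 ratio of CPM in replicate 2 over replicate 1, minus the median of all 12759 genes with at least 10 expected counts in both, which was -0.10. It was 0.39 for Gm22009, 1.08 for Scarna2, 1.52 for Gm25395, 1.54 for Scarna13, 1.58 for Scarna6 and 2.66 for Gm26083, with a median of 1.53. More than 2-fold above the median gene were 5 of the 6 members, against 3.97% of all these genes, and 0 were more than 2-fold below it, against 3.03%. Only genes with 10 counts in both libraries entered, and 2 libraries of 1 group give no test of these values.

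Other short genes were also higher in replicate 2. The 65 genes of 150 nt up to 300 nt, the 4 members of that length included, had a median of 1.22 with quartiles of 0.70 and 1.96, which enclose 3 of these 4 members, and the 157 genes of 300 nt up to 500 nt one of 0.24. The 105 other genes of 193 to 414 nt, Scarna10 among them at 1.67, had a median of 0.39, with quartiles of -0.30 and 1.34, and 34 of them (32.4%) were over 2-fold higher in replicate 2. The 20 snoRNA genes had a median of 3.04, the 29 snRNA genes 1.22, and protein-coding genes 0.03. Groups of short genes had equal values, as Rnu3b1, Rnu3b2, Rnu3b3 and Rnu3b4 at 3.05, and Rnu1a1 and Gm22068 at 1.22. Whether such genes share reads was not tested, so these sets may hold fewer separate RNAs than genes. In 3 host genes the value was smaller than in their members, at -0.09 for Kpna4, 0.36 for Atg16l1 and 0.45 for Snhg20. These 3 values rose in the order of their members, but Gm26083 overlaps an exon of Snhg20. Snhg10, the host of Scarna13, had 0 and 4 expected counts and so no value. In TPM, the log2 ratio without centring was -0.66 for Gm22009 and between 0.14 and 0.96 for the other 5 members, all above the median of all genes of -0.71. Centred on that median, the members' median was 0.99 in TPM. RNA input, mean fragment length and depth all differed between the libraries together with these ratios, and their parts cannot be told apart here.

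**Figure D4:**
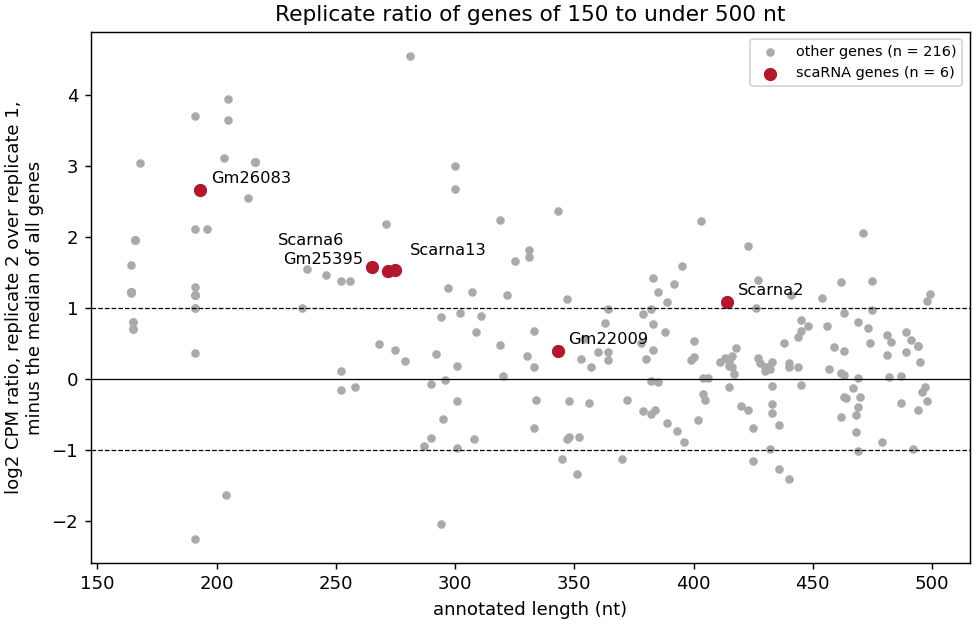
Log2 ratio of CPM (counts per 1000000), replicate 2 over replicate 1, minus the median of all genes, against annotated length for genes of 150 nt up to 500 nt with at least 10 expected counts in both libraries. The 6 scaRNA genes (red) lie above 0, 5 of them above the upper dashed line that marks 2-fold.

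RNA for most proteins that place, make or release scaRNAs was detected. Among 11 genes for Cajal body structure and scaRNA targeting, 9 reached 1 TPM in both libraries, and the median of the list was 3.74 ± 0.834 TPM (SD, n = 2). The RNA-binding protein gene Tardbp was the highest with a mean of 66.6 TPM, followed by Nop53 (9.61), Pias4 (9.34), and Sart3 (5.6) and Uspl1 (5.6). The lowest were Nolc1 (2.08), Wrap53, the carrier of scaRNAs (0.59 and 0.68 in the 2 libraries), and Coil, which encodes the Cajal body scaffold coilin (0.48 and 0.38). Across all gene rows, 10321 of 55536 reached 1 TPM in both libraries, and 8523 of 22015 nuclear protein-coding genes did; the median of the latter was 0.33 and 0.24 TPM in the 2 libraries.

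The lists of box C/D and H/ACA proteins had medians of 1.73 and 1.7 TPM. Of 11 box C/D genes, 6 reached 1 TPM in both libraries: the highest were Nop56 (mean 16.3), Nop58 (11.1), the methyltransferase gene Fbl (5.14) and Snu13 (5.01), and the lowest the assembly factors Ruvbl1 (0.77), Znhit3 (0.525) and Rpap3 (0.47). Of 6 H/ACA genes 3 did, namely Nhp2 (6.59), Gar1 (3.47) and the pseudouridine synthase gene Dkc1 (2.35), while Naf1 (1.0), Shq1 (0.97) and Nop10 (0.49) fell short in at least 1 library. These are levels of RNA in a nuclear fraction and say nothing of protein.

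For release from introns, 11 of 13 genes reached 1 TPM in both libraries, led by the exonuclease gene Xrn2 (20.5), Exosc10 (8.47), Tent4a (8.44) and Aqr (4.71). Dis3 (1.67) passed, while Pop1 (1.37) and the debranching enzyme gene Dbr1 (1.15) were below 1 TPM in replicate 2. For transcription of snRNAs and of scaRNAs with their own promoter, 15 of 15 did, from Ell2 (112), Snapc3 (12.1), Ice1 (7.11) and Ell (5.98) down to Snapc5 (1.8), Ints11 (1.42) and Snapc2 (1.34). Of the 9 genes of the SMN complex, which loads Sm proteins onto snRNAs, 3 did: Strap (5.98), Gemin7 (3.18) and Smn1 (2.8) led it, with Ddx20 (1.06) next, and Gemin8 (0.235), Gemin4 (0.13) and Gemin6 (0.08) were the lowest. Of the Sm and LSm genes, 11 of 16 did, with Snrpd1 (7.7), Snrpe (7.34), Lsm10 (6.52) and Snrpb (5.39) at the top and Lsm11 (0.475), Lsm5 (0.455) and Snrpf (0.355) at the bottom. Of 8 genes for snRNP cap, import and export, 7 did: Srrt (41.5), Xpo1 (20.1), Kpnb1 (11.2), Tgs1 (12.16 and 7.85 in the libraries), Ncbp1 (3.21), Ncbp2 (2.18) and Phax (1.68), with Snupn at 0.635.

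Terc, the telomerase RNA, is an H/ACA RNA that also passes through Cajal bodies but is not annotated as scaRNA. It is 423 nt long and had 15 and 101 expected counts (6.57 and 12.57 TPM), and its centred replicate ratio was 1.87, above those of the members other than Gm26083. Tert, the catalytic subunit gene, was listed at 0 expected counts in both. The other genes of the telomerase list were Parn (2.63), Dkc1 and Wrap53, which belong to the lists above too.

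Markers of the labelled cell type were present. All 10 macrophage markers reached 1 TPM in both libraries, with summed TPM of 3748 and 3092, whereas 0 of 18 markers of T cells, B cells, neutrophils, erythroid cells, stroma and dendritic cells did, with summed TPM of 4.5 and 2.81. A chi-square of the expected counts of both libraries over 13873 genes was 101 per degree of freedom, which sets their difference against counting error only.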

How the data were processed

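Total RNA depleted of ribosomal RNA was measured in 2 libraries of 1 group. Per the file headers, the deposited gene and transcript tables hold expected counts, effective lengths and TPM in the layout of RSEM, and a further deposited transcript table holds estimated counts and TPM in the layout of kallisto. The authors' readme files name mm10 and annotation M21; program versions and the strand setting are not given in the sources read, so a member and an overlapping antisense gene cannot be told apart with certainty. The authors estimated these counts from reads. Counts were rounded to whole numbers for the TMM and DESeq2 factors, the chi-square and the binomial intervals.

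Transcript values were summed per gene. CPM (counts per 1000000) used the 55536 gene rows; the other 26345 rows (IDs that are bare numbers, and spike-in rows) held 0.504% and 0.0968% of the counts and were left out. A gene was detected with at least 10 counts in both libraries. A host was the same-strand gene whose body holds the member and that is no small RNA. Scaling alternatives used edgeR 4.0.16 (TMM) and DESeq2 1.42.0 (size factors), with no test. Scripts ran on Python 3.11.15 with scipy 1.17.1 and were tested on simulated data. Total expected counts were 10395300 and 20515408. Named are each detected member with its host and, by mean TPM, the top 4 and bottom 3 genes of a list, or all genes where a list has at most 8. A count of 0 allows 3 counts per library. The members, lists and rules were chosen with earlier results of these data known.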

Additional observations from a re-analysis of the deposited data

How the results depend on the processing

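Over 9 results and 51 alternative settings, 38 values stayed within the tolerance (1.5 times for a count, 1 SD between the libraries for a share, 1 SD over the 6 members for the replicate ratio, 0.1 for a rho), 12 moved and 1 reversed. Some of the 38 could not move. With 2 libraries, a share from 1 of them always lies within 1 SD of the mean. The summed transcript tables repeated the values of the gene tables, and rho, which rests on ranks, was unchanged by the pseudocount. The 38 therefore do not measure how robust the results are. Within the tolerance, the replicate ratio still went from 1.53 to 0.99 in TPM. Detected members went from 6 to 9 at 1 count or without replicate 1. With estimated counts, 12 members were detected, 7 of them under 200 nt, and the TPM share was 0.3469%. There 8 of 12 members were over 2-fold above the median ratio and 1 was over 2-fold below it. The relation to host level turned to -0.268. Over protein-coding genes only, the shares were 0.2224% of counts and 4.159% of TPM. Without a count minimum 8 of 9 members were off the median ratio, and at 3-fold 1 was. Every hosted member gave a host relation of 0.175, and a minimum of 1 count gave 4 detected members under 200 nt. Leaving out 1 library moved the host relation within 0.205 to 0.616 and the detected members under 200 nt within 1 to 4, in both cases by leaving out replicate 1. TMM and DESeq2 factors shifted the centre by -0.01 and 0.03 (log2). The cause of these changes was not tested beyond what each setting changes by construction. No paired analysis was possible because there was 1 group. Depth and effective length limit every statement on members under 131 nt in replicate 1.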

Other observations

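Mature miRNAs of RefSeq (GRCm38.p6) lay inside 5 scaRNA genes. Scarna13 holds both arms of miR-3069, Gm26083 those of miR-6516, Scarna3b those of miR-1843a, Scarna3a those of miR-1843b, and Mir1839, a gene annotated as scaRNA under a miRNA symbol, holds miR-1839-5p. Their sequences are shown with the seed, bases 2 to 8, in capitals.
mmu-miR-1843a-3p (chr12:80391615-80391636): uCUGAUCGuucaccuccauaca
mmu-miR-1843a-5p (chr12:80391654-80391674): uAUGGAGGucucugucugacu
mmu-miR-6516-5p (chr11:117077370-117077391): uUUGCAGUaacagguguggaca
mmu-miR-6516-3p (chr11:117077412-117077433): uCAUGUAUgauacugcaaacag
mmu-miR-3069-3p (chr12:105031078-105031099): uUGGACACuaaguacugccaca
mmu-miR-3069-5p (chr12:105031117-105031140): uUGGCAGUcaagauauuguuuagc
mmu-miR-1843b-5p (chr1:159340362-159340382): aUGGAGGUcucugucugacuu
mmu-miR-1843b-3p (chr1:159340400-159340419): cCGAUCGUuccccuccauac
mmu-miR-1839-5p (chr7:81529919-81529940): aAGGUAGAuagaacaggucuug
miR-1843a-5p and miR-1843b-5p lie at matching places of the 85.7% identical Scarna3b and Scarna3a, but start 1 base apart, so that their seeds differ. The miRNA genes themselves were listed at 0 expected counts in both libraries, while Scarna13 had 254 and 1363 counts and Gm26083 12.5 and 145.86. Whether any of these reads came from a miRNA was not tested. All scaRNA, snoRNA and snRNA genes under 100 nt had an effective length of 0 in both libraries and were listed at 0. A miRNA gene of such a length would be listed at 0 whatever its reads, so a 0 there does not show absence.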
